A study of Mus musculus with 20 samples.

Results

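The organic ion transporters described here are 9 genes of the Slc22 family, Slc22a2, Slc22a6, Slc22a7, Slc22a8, Slc22a12, Slc22a26, Slc22a27, Slc22a28 and Slc22a30. They were taken by name from a count table of 54532 genes, and all 9 were found in it. RNA was sequenced from kidney and from liver of male C57BL/6 mice, and the design text gives 5 mice that lack Lxrα (Lxrα-/-) and 5 wild-type mice. This makes 4 groups of 5 libraries. Ages are not in the labels, and no treatment is named for either genotype. A kidney and a liver with equal genotype and title number were taken to be organs of the same mouse, although the titles do not spell this out. The main fits held no term for the mouse. Lxrα is a nuclear receptor for oxysterols, encoded by Nr1h3. The labels do not say which exons the allele removes.

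Slc22 proteins carry small charged molecules across the plasma membrane of epithelial cells. In the proximal tubule of the kidney, the organic anion transporters OAT1 (Slc22a6) and OAT3 (Slc22a8) take drugs, toxins and metabolites from blood in exchange for dicarboxylates, and OCT2 (Slc22a2) takes up organic cations. URAT1 (Slc22a12) sits on the luminal side and recovers urate from the filtrate, and OAT2 (Slc22a7) works in both kidney and liver. Slc22a26, Slc22a27, Slc22a28 and Slc22a30 belong to a rodent branch of the family whose substrates are less well known, and Slc22a26 and Slc22a27 are known in mouse liver as genes with higher expression in females.

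Positions are those in the count table, on mouse build mm10. Slc22a2 lies at chr17:12584132-12628488 on the plus strand and Slc22a7 at chr17:46432183-46438457 on the minus strand. The other 7 members lie on chromosome 19. Slc22a12 stands apart at chr19:6535845-6543019 on the minus strand, and it overlaps Nrxn2 on the opposite strand, which had 2454 counts over all libraries against 398982 for Slc22a12. The miRNA gene Gm24951 inside Slc22a27 had 4 counts against 1200. A cluster of 8 Slc22 genes, of which 6 are members, spans 955.2 kb. It holds Slc22a26 (chr19:7781041-7802667), Slc22a27 (chr19:7864388-7966027), Slc22a28 (chr19:8062209-8131982) and Slc22a30 (chr19:8335371-8405111) on the minus strand. Slc22a8 (chr19:8591254-8611834) and Slc22a6 (chr19:8617996-8628299) follow on the plus strand, 6.16 kb apart. All 9 are protein-coding, with 10 or 11 exons carrying coding sequences of 1611 to 1659 bases.

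The coding sequences of Slc22a28 and Slc22a30 were identical at 1636 of 1656 bases (98.8%), with a longest identical run of 431 bases. Slc22a27 was 97.3% identical to Slc22a29, a cluster gene that is not a member. The 4 rodent members were 74.1 to 98.8% identical among themselves (6 pairs) and 51.3 to 56.8% identical to the other 5 members (20 pairs). How reads that match both genes of such a pair were counted is not given in the sources used here, so the split of counts between Slc22a28 and Slc22a30, and between Slc22a27 and Slc22a29, is uncertain.

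The 250 bases before the RefSeq start are shown for the 6 members of the cluster, because all 3 members called by genotype lie in it. They come from RefSeq on build GRCm38.p6, whose promoter table holds 8 of the 9 members. RefSeq starts can differ from the gene bounds given above. The Slc22a8 window lies inside the gene as positioned in the count table, which begins at 8591254. The Slc22a30 window, from 8405106, overlaps the gene's end at 8405111. Each runs 5′ to 3′ on the strand of its gene. Capitals mark TTCNNNGAA (the STAT motif) in Slc22a26, AGGTCA (a nuclear receptor core, here on the other strand) in Slc22a27, GTTAAT (an HNF1 core) in Slc22a8 and Slc22a6, and the bases that differ between Slc22a28 and Slc22a30 in those 2 genes.
Slc22a26, chr19:7802668-7802917, minus strand: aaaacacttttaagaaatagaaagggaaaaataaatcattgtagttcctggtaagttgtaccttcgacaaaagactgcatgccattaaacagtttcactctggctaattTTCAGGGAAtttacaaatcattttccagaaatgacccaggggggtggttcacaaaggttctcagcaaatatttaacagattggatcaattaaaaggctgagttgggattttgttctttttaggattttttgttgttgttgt
Slc22a27, chr19:7966028-7966277, minus strand: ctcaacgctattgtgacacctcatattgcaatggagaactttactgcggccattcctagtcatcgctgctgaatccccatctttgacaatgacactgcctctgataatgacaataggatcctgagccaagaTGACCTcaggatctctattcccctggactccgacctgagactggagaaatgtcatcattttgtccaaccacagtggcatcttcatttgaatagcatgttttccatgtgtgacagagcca
Slc22a28, chr19:8131983-8132232, minus strand: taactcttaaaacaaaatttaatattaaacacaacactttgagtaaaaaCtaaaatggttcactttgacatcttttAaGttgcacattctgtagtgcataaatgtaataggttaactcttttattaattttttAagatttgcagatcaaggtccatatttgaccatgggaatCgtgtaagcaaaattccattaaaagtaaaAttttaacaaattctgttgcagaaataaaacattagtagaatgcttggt
Slc22a30, chr19:8405106-8405355, minus strand: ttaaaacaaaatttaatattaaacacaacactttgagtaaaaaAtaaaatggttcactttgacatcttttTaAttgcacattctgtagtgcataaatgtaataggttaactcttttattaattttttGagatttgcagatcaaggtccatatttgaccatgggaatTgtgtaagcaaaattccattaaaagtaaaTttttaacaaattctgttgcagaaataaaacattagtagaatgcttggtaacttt
Slc22a8, chr19:8592932-8593181, plus strand: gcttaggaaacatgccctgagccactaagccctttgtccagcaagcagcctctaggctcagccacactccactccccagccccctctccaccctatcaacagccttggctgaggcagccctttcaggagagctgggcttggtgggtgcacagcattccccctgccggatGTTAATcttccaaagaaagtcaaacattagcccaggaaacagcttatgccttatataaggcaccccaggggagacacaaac
Slc22a6, chr19:8617746-8617995, plus strand: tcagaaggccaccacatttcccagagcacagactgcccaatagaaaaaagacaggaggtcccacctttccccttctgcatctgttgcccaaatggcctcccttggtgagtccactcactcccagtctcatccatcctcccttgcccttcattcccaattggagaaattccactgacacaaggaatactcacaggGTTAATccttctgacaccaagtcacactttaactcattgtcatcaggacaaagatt

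Motifs were searched on both strands of windows that reach 50 bases past the start, in 32851 mouse promoters. GTTAAT was found in 7.1% of all promoters. It lay at -81 to -76 from the RefSeq start of Slc22a8 and at -56 to -51 from that of Slc22a6. TTCNNNGAA occurred in 8.3% of promoters, and in Slc22a26 it lay at -141 to -133. AGGTCA occurred in 16.3% of promoters, and in Slc22a27 it lay at -119 to -114. The letters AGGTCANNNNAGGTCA, a repeat that LXR with RXR can bind and that contains AGGTCA, were in 0.0152% of promoters and in no member's window. CAAAGTCCA, an HNF4 motif, was in 0.475% of promoters and in no member's window. The upstream bases of Slc22a28 and Slc22a30 matched at 238 of 244 aligned positions (97.5%), with 6 differences and no gap.

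Depth was 23421561 to 35376342 counts per library. Values are CPM, library-size-scaled counts with TMM factors computed within a tissue, and group values are mean ± SD over n = 5 libraries. Nothing beyond the title numbers describes the replicates, so the p-values measure the spread between these libraries. Wild-type kidney 3 had 50.8% of its counts on mitochondrially encoded genes and wild-type kidney 1 had 7.21%, against 12.6 to 21.1% in the other 8 kidneys. Nr1h3, the targeted gene, was higher in the libraries labelled knockout, at 126 ± 21.7 against 52.1 ± 2.27 CPM in kidney and 167 ± 18 against 98.2 ± 13.6 CPM in liver. The counts therefore do not show loss of the transcript, and "labelled knockout" is used throughout. Kidneys expressed all 15 proximal tubule markers and livers all 11 hepatocyte markers.

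**Figure D1:**
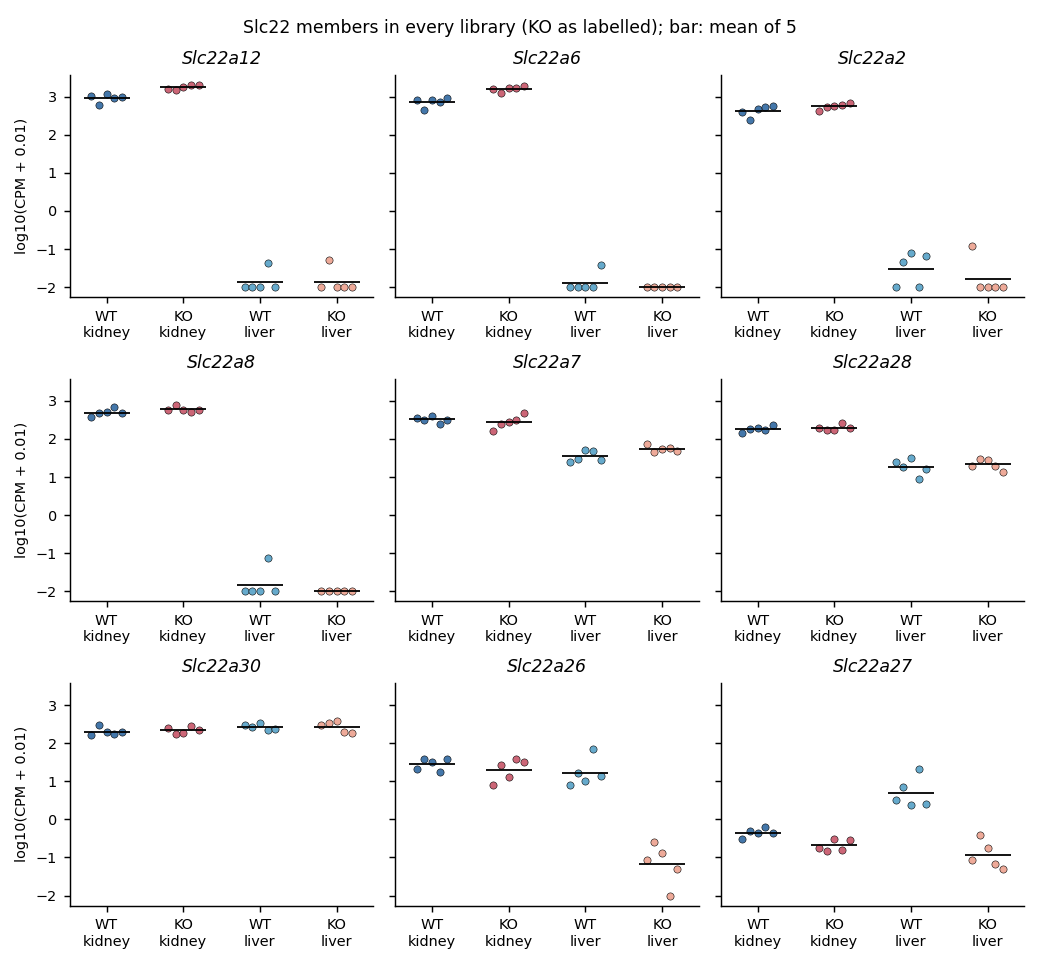
Level of each member in the 20 libraries, as log10(CPM + 0.01) by group, with points for libraries and a bar at the mean of the 5 log values. Slc22a26 and Slc22a27 in liver are the members with the widest separation of genotypes, and Slc22a12, Slc22a6, Slc22a2 and Slc22a8 are near the bottom of the axis in liver.

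In wild-type mice the 9 genes fell into those used by kidney, those shared with liver and 1, Slc22a27, with counts mainly in liver. Wild-type kidney was compared with wild-type liver by edgeR's quasi-likelihood test, with p-values adjusted after Benjamini and Hochberg over all genes tested, and a difference was called at an adjusted p under 0.05. A difference was called for 8 of 9 members, against 53.8% of 16645 genes. Of these, 6 were higher in kidney, against 29.6% of genes, and 2 higher in liver, against 24.2%. On CPM scaled over the wild-type libraries of both organs together, the organs did not overlap for those 8 members. The same held for 43.9% of genes, with 23.5% of genes above in kidney and 20.4% above in liver. On the CPM scaled within a tissue, Slc22a30 did overlap, at 160.8 to 296.4 in wild-type kidneys and 215.4 to 335.8 in wild-type livers.

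URAT1, OAT1, OAT3 and OCT2 were close to absent from liver. Slc22a6 had 116625 counts over the 5 wild-type kidneys and 1 count over the 5 wild-type livers, a ratio of 117000 (95% counting interval 20900 to 4610000). Slc22a12 had 147598 counts in kidney and 1 in liver, a ratio of 148000 (26500 to 5830000). Slc22a8 had 74430 counts against 2, a ratio of 37200 (10300 to 307000). Slc22a2 had 67421 counts against 5. These ratios are of summed counts, and the intervals cover counting error only. In the labelled knockout livers Slc22a6 and Slc22a8 had a count of 0 in every library, which allows up to 3 counts in total for each, and Slc22a12 and Slc22a2 had 1 and 3 counts.

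OAT2 and 3 of the rodent members, Slc22a26, Slc22a28 and Slc22a30, were found in both organs. Slc22a7 was higher in kidney by a log2 difference of 2.54 (SE 0.25, edgeR adjusted p = 1.44e-06) and Slc22a28 by 2.59 (SE 0.3, edgeR adjusted p = 5.23e-06). Slc22a30, whose coding sequence is nearly that of Slc22a28, was lower in kidney than in liver by a log2 difference of -1.04 (SE 0.21, edgeR adjusted p = 0.000862). Without TMM scaling that difference was -0.43 and no longer passed (adjusted p = 0.0836). Slc22a27 was the member with the largest difference toward liver, at a log2 difference of -4.68 (SE 0.66, edgeR adjusted p = 3.52e-05). Its near-identical partner Slc22a29 was higher in kidney, by 2.57 (SE 0.45, edgeR adjusted p = 0.000248). How reads that match both genes were split is not known, and the Slc22a27 difference depends on that split. Slc22a26 did not pass, with 4168 counts over the wild-type kidneys and 3534 over the wild-type livers and a log2 difference of -0.32 (95% interval -1.43 to 0.78, edgeR adjusted p = 0.627), and without wild-type liver 5 the difference was 0.64.

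Per kilobase of gene length, the scale on which genes can be set side by side, wild-type kidney had the order Slc22a12 (424 ± 94.0 CPM per kb), Slc22a6 (186 ± 44.9), Slc22a2 (176 ± 49.1), Slc22a7 (158 ± 26.9), Slc22a8 (144 ± 31.9), Slc22a28 (92.6 ± 16.9), Slc22a30 (60.8 ± 15.95), Slc22a26 (9.95 ± 3.27) and Slc22a27 (0.207 ± 0.0537). URAT1 stood above OAT1 in all 5 libraries. OAT1, OCT2, OAT2 and OAT3 were neighbours within their spread, and Slc22a2 exceeded Slc22a7 in only 2 of 5 libraries. Slc22a12 made up 33.9% of the summed level of the 9 genes in wild-type kidney and 41.5% in labelled knockout kidney. Wild-type liver had the order Slc22a30 (80.2 ± 14.4 CPM per kb), Slc22a7 (17.5 ± 6.11), Slc22a28 (9.94 ± 4.27), Slc22a26 (7.93 ± 8.59) and Slc22a27 (3.39 ± 3.75). Slc22a30 alone made up 67.4% of the summed level in wild-type liver and 68.4% in labelled knockout liver. Slc22a28 exceeded Slc22a26 in 4 of 5 wild-type livers, the exception being wild-type liver 5.

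Kidney by genotype. OAT1 rose in the labelled knockout kidneys, URAT1 stood higher without passing the test, and the other 7 members did not pass in either direction. All 9 members were tested, and 1 was called, against 2.26% of 16500 genes. That gene was higher, against 0.394% of genes, and 0 were called lower, against 1.87%. At an unadjusted p under 0.05 the members were Slc22a6, Slc22a12 and Slc22a27. The median log2 fold change (labelled knockout over wild type) was 0.13 over the members and -0.07 over all genes tested.

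Slc22a6 was at 842.3, 450.1, 840.4, 709.7 and 900.1 CPM in wild-type kidneys 1, 3, 4, 5 and 6. It was at 1547, 1240, 1667, 1693 and 1948 CPM in labelled knockout kidneys 1 to 5. Every labelled knockout kidney exceeded every wild-type kidney, and wild-type kidney 3 was the lowest of all. The means were 1619 ± 257 against 748.5 ± 181 CPM, a log2 fold change of 1.11 (SE 0.24, 95% interval 0.59 to 1.63, edgeR adjusted p = 0.0332). The size held when any library was left out (1.0 to 1.2), but the call did not. It was lost without wild-type kidney 1, 4 or 5 or labelled knockout kidney 1, 3, 4 or 5, with adjusted p from 0.0118 to 0.101 over the 10 fits.

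Slc22a12 was at 1053, 612.7, 1177, 931.3 and 999.7 CPM in the wild-type kidneys in the same order. The labelled knockout kidneys had 1552, 1487, 1843, 1976 and 2067 CPM. These groups did not overlap either, so the groups lay apart for 2 of 9 members, both higher in labelled knockout, against 6.92% of all genes tested in either direction, 2.79% above and 4.13% below. The means were 1785 ± 256 against 954.7 ± 211 CPM, with a log2 fold change of 0.90 (SE 0.23, 95% interval 0.4 to 1.4, edgeR adjusted p = 0.0621). Slc22a12 therefore missed the threshold, and it passed with the DESeq2 Wald test (adjusted p = 0.000447), without wild-type kidneys 1 and 3 (0.0209) and without wild-type kidney 3 (0.0244).

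The remaining tubule transporters had smaller differences. Slc22a2 was at 563 ± 97.6 against 436.8 ± 122 CPM, with a log2 fold change of 0.37 (95% interval -0.15 to 0.88). Slc22a8, the neighbour of Slc22a6, was at 605.1 ± 98.0 against 500.5 ± 111 CPM, with 0.27 (-0.18 to 0.73). Slc22a7 was at 296.5 ± 114 against 332 ± 56.4 CPM, with -0.16 (-0.72 to 0.39). Labelled knockout kidneys 1 and 5 held both ends of the Slc22a7 range, at 166.7 and 473.3 CPM. For these 3 genes the groups overlapped, and the intervals still allow a change of some size in either direction.

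The rodent members of the cluster did not pass in kidney. Slc22a28 was at 200.7 ± 35.2 against 185.6 ± 33.8 CPM (log2 fold change 0.11, 95% interval -0.29 to 0.52) and Slc22a30 at 224.6 ± 43.1 against 204.9 ± 53.7 CPM (0.13, -0.32 to 0.59). Slc22a26 was at 23.7 ± 13.1 against 29.4 ± 9.63 CPM (-0.31, -1.12 to 0.51). Slc22a27 had few counts, 4 to 20 per kidney, and stood at 0.206 ± 0.0722 against 0.444 ± 0.115 CPM. Its log2 fold change was -1.09 (SE 0.38, 95% interval -1.90 to -0.27, edgeR adjusted p = 0.146), and labelled knockout kidney 3 overlapped wild-type kidney 1.

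Because these genes mark or share the proximal tubule, its other markers are given beside them. In bulk tissue, fewer cells of a type and less RNA per cell cannot be told apart. Of 15 proximal tubule markers 14 had a positive log2 fold change and 0 were called, with a median of 0.44. Their summed level was 53930 to 68970 CPM in labelled knockout kidneys and 31780 to 49410 CPM in wild-type kidneys. That sum rests largely on 1 marker, since the highest marker had a median of 30900 CPM over the kidneys. The mean log2 level of the 15 markers overlapped, at 9.90 to 10.26 in labelled knockout and 8.95 to 10.04 in wild type. Among markers of other cells, 5 of 8 fibroblast and matrix genes, 4 of 9 lymphocyte genes and 1 of 8 endothelial genes were called lower. All 6 podocyte genes and all 6 macrophage genes tested had a negative log2 fold change, with medians of -0.8 and -0.56, and 0 were called. None of the 10 distal nephron and collecting duct genes was called, with a median of -0.07 and summed levels of 2772 to 4635 CPM against 3170 to 6017 CPM in wild type. The part of these cells in the results was not tested. The log2 level of each transporter was also taken relative to the mean log2 level of the 15 markers, an alternative chosen after seeing the data. On that scale Slc22a6 was at 0.61 ± 0.25 in labelled knockout and -0.10 ± 0.15 in wild-type kidneys, a difference of 0.71 with no overlap. Slc22a12 differed by 0.50, with 0.34 to 1.02 against -0.08 to 0.61, which overlap. Slc22a2 (-0.03), Slc22a8 (-0.14), Slc22a28 (-0.31) and Slc22a30 (-0.28) changed sign on it, and Slc22a7 stood at -0.65 and Slc22a26 at -0.86. Slc22a27 stood at -0.69 with no overlap, at levels under the pseudocount of 1 CPM, which compresses its differences.

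**Figure D2:**
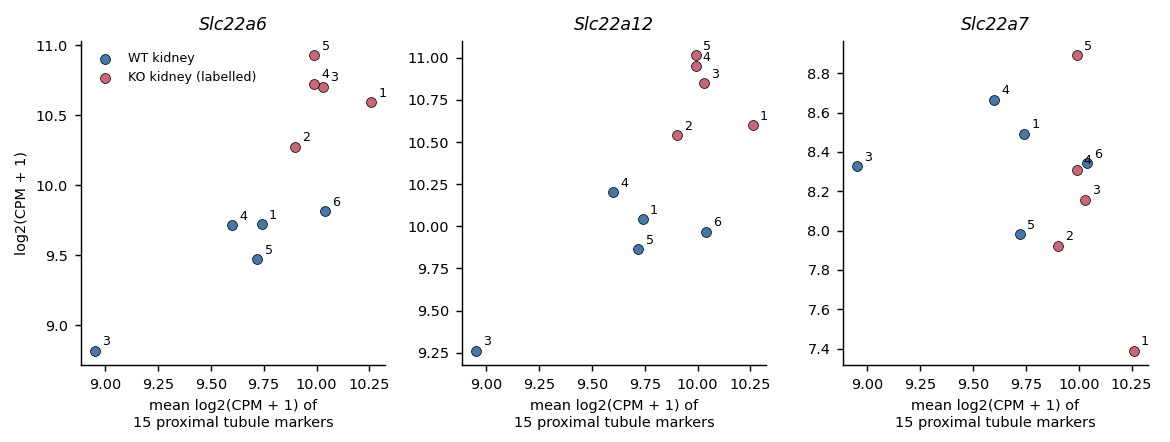
Slc22a6, Slc22a12 and Slc22a7 in the 10 kidneys as log2(CPM + 1), against the mean log2(CPM + 1) of 15 proximal tubule markers, with each point numbered by its title. Wild-type kidney 3 has the lowest marker level (8.95), and wild-type kidney 6 (10.04) is the only wild-type kidney within the labelled knockout range of 9.90 to 10.26.

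Liver by genotype. Slc22a26 and Slc22a27 were nearly lost from the labelled knockout livers, whereas OAT2, Slc22a28 and Slc22a30 did not pass the test. Of the 9 members 5 passed the filter on low counts. A difference was called for 2, against 6.02% of 14822 genes. Both were lower, against 4.08% of genes, and 0 were higher, against 1.94%. Slc22a7 was the only other member with an unadjusted p under 0.05 by edgeR, and DESeq2 called 0 members higher as well.

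Slc22a26 was at 7.88, 16.6, 10.3, 68.3 and 13.8 CPM in wild-type livers 1, 3, 4, 5 and 6. In labelled knockout livers 1 to 5 it was at 0.0749, 0.252, 0.124, 0 and 0.0386 CPM, which rest on 0 to 6 counts per library against 203 to 2104 in wild type. The lowest wild-type liver stood 31.3-fold above the highest labelled knockout liver. The log2 fold change was -7.96 (SE 0.85, 95% interval -9.80 to -6.11, edgeR adjusted p = 0.00017), and the means were 0.0978 ± 0.0974 against 23.4 ± 25.3 CPM. Leaving out any library gave -8.64 to -7.01, called each time.

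Slc22a27 was at 3.18, 7.09, 2.36, 21.3 and 2.56 CPM in the wild-type livers in the same order, and at 0.0749, 0.377, 0.165, 0.0578 and 0.0386 CPM in labelled knockout livers 1 to 5. Again no library of either genotype reached into the range of the other, and the lowest wild-type liver was 6.24-fold above the highest labelled knockout liver. Counts were 67 to 657 in wild type and 1 to 9 in labelled knockout. The log2 fold change was -5.71 (SE 0.82, 95% interval -7.48 to -3.95, edgeR adjusted p = 0.00135), from 0.143 ± 0.140 against 7.30 ± 8.08 CPM. Leaving out any library gave -6.42 to -4.76, called each time. The groups lay apart for these 2 members, against 6.95% of all genes tested, with 2.42% above and 4.53% below.

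The size of both differences depended on wild-type liver 5. That liver held 4.1-fold more Slc22a26 and 3.01-fold more Slc22a27 than the next highest wild-type liver. The other 4 wild-type livers averaged 12.2 ± 3.85 CPM of Slc22a26 and 3.796 ± 2.225 CPM of Slc22a27 (SD, n = 4). Those means were 124 and 26.6 times the labelled knockout means, against 239 and 51.2 times with wild-type liver 5 included. Slc22a28, in contrast, was at its lowest in wild-type liver 5, at 8.70 CPM against 16.3 to 31.2 CPM in the other wild-type livers.

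Markers of other cells also differed between the livers. Of 9 macrophage genes 4 were called lower, among them Cd5l (log2 fold change -8.45), as were 4 of 8 fibroblast and matrix genes. Of 9 lymphocyte genes 6 were called lower and 1 higher. Of 8 endothelial genes 1 was called lower, Cdh5 (-0.9), and of 5 cholangiocyte genes 1 was called higher, Sox9 (1.2). Of 11 hepatocyte genes 1 was called, Alb (-0.75). Their part in the Slc22a26 and Slc22a27 results was not tested.

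Known female-biased genes were low in the same livers as both transporters. The summed level of 13 female-biased genes (those that female mouse liver expresses more strongly) was 156.6, 189.9, 211, 1050 and 259.3 CPM in wild-type livers 1, 3, 4, 5 and 6, and 2.98 to 32.3 CPM in labelled knockout livers. Wild-type liver 5 was highest for this sum, as it was for Slc22a26 and Slc22a27. Much of the sum was 1 gene, as Cyp2a4 alone averaged 263 ± 244 CPM in wild-type livers, where the sum averaged 373.4 CPM. Of the 6 female-biased genes that passed the filter 5 were called lower, among them Cyp2a4 (log2 fold change -8.94, edgeR adjusted p = 1.61e-05), a steroid hydroxylase. The summed level of 13 male-biased genes was 2595 to 6340 CPM in wild type, lowest in wild-type liver 5, and 8971 to 11120 CPM in labelled knockout livers. Of the 12 male-biased genes tested 4 were called higher. The part of these genes in the result was not tested.

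**Figure D3:**
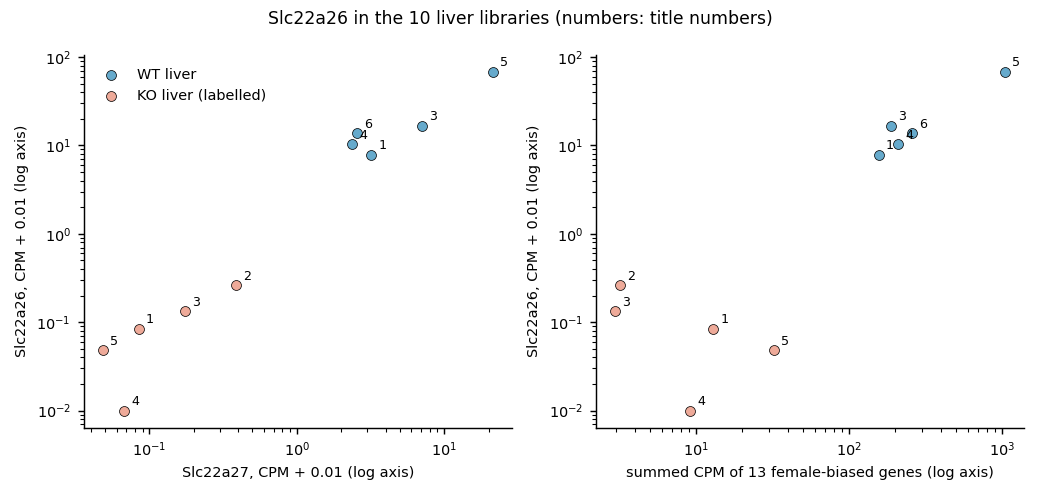
Slc22a26 in the 10 livers (CPM + 0.01, log axis) against Slc22a27 on the left and against the summed CPM of 13 female-biased genes on the right, with each point numbered by its title. The 5 wild-type livers lie above all 5 labelled knockout livers on each axis, and wild-type liver 5 is the topmost point in both panels.

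Slc22a7 was at 25.0, 29.9, 52.7, 48.7 and 27.9 CPM in the wild-type livers and at 73.8, 45.2, 54.1, 57.9 and 48.6 CPM in the labelled knockout livers. The labelled knockout values were mostly higher, but the ranges overlapped. The log2 fold change was 0.60 (SE 0.22, 95% interval 0.14 to 1.07, edgeR adjusted p = 0.13). Slc22a28 was at 22.4 ± 7.10 against 19.9 ± 8.55 CPM (0.17, 95% interval -0.48 to 0.81). Slc22a30, the most strongly expressed member in liver, was at 276.7 ± 83.4 against 270.1 ± 48.5 CPM (0.03, -0.41 to 0.48).

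**Figure D4:**
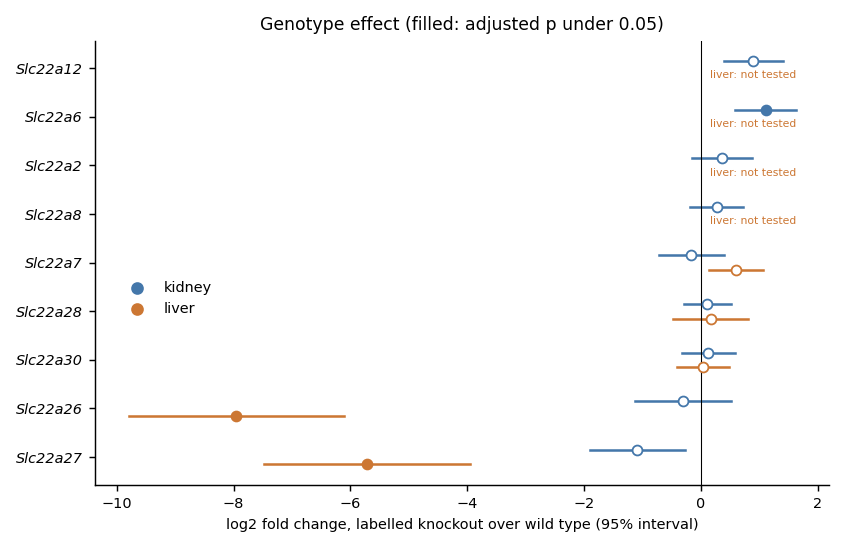
Log2 fold change of labelled knockout over wild type with its 95% interval for each member in kidney and liver, filled where the adjusted p is under 0.05. Slc22a6 in kidney (1.11) and Slc22a26 (-7.96) and Slc22a27 (-5.71) in liver are filled, and 4 members were not tested in liver.

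Whether the genotypes differed by tissue was tested directly in a fit of all 20 libraries, as the log2 fold change in kidney minus that in liver. The difference was called for 2 of 9 members, against 1.51% of 17606 genes. Both were positive, against 0.937% of genes, and 0 were negative, against 0.568%. Slc22a26 differed by 7.70 (SE 0.95, 95% interval 5.73 to 9.68, edgeR adjusted p = 5.96e-05) and Slc22a27 by 4.66 (SE 0.96, 2.68 to 6.64, adjusted p = 0.0113). For Slc22a27 the call was lost without labelled knockout livers 4 and 5 (4.14, adjusted p = 0.0608). Slc22a7 had -0.74 (95% interval -1.47 to -0.01, adjusted p = 0.364), Slc22a28 had -0.03 (-0.78 to 0.72) and Slc22a30 had 0.13 (-0.49 to 0.74). Slc22a2, Slc22a6, Slc22a8 and Slc22a12 were tested too and were not called, but no value is given, since their liver side rests on 0 to 5 counts per group.

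Along the chromosome 19 cluster the called genes were Slc22a26 and Slc22a27 near its start and Slc22a6 at its end. In liver, Slc22a26 and Slc22a27 fell, and Slc22a28 and Slc22a30, which lie further along on the same strand within 624.1 kb of Slc22a26, did not pass. Slc22a29, which lies between those 2 and is the near-identical partner of Slc22a27, did not pass the filter in liver. It was at 0.111 ± 0.0753 CPM in labelled knockout and 0.938 ± 0.501 CPM in wild-type livers, with a highest value of 0.193 and a lowest of 0.258 CPM respectively. In kidney, Slc22a6 rose and Slc22a8, which lies 6.16 kb away and holds the same GTTAAT letters in the promoter shown above, did not pass. Whether neighbours differed from each other was not tested.

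**Figure D5:**
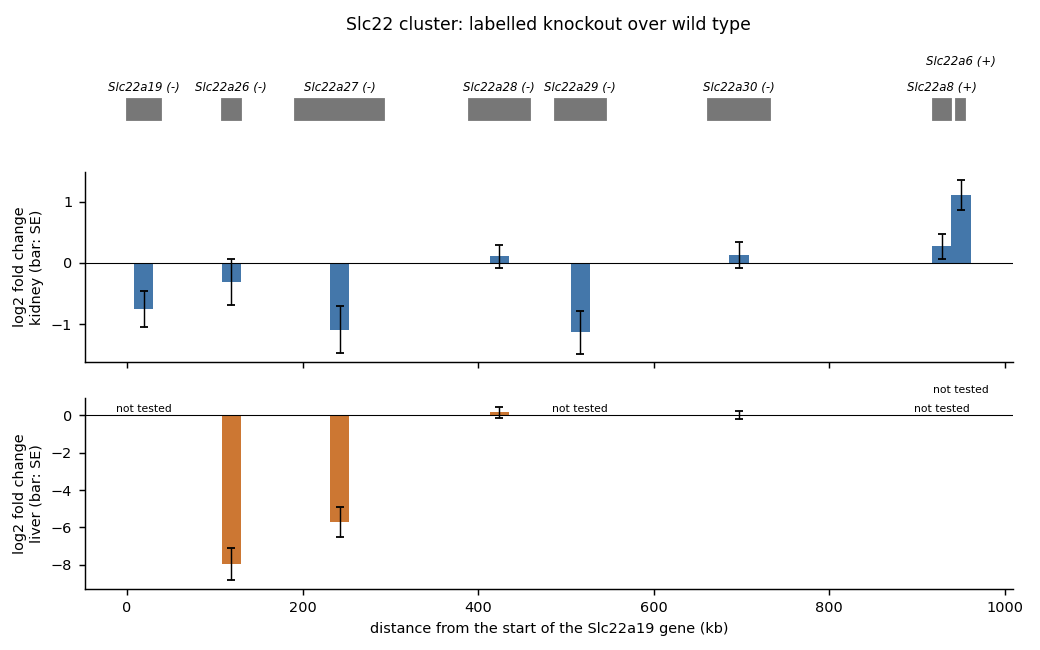
The 8 Slc22 genes of the chromosome 19 cluster, drawn to scale by distance from the start of Slc22a19, with the log2 fold change of labelled knockout over wild type (bar) and its SE in kidney and in liver. The bars for Slc22a26 and Slc22a27 reach -7.96 and -5.71 in liver, and Slc22a6 reaches 1.11 in kidney.

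The genes whose profile was most like that of a called member were found by the root-mean-square distance of centred log2 CPM over the 10 libraries of the tissue, a description that carries no test. For Slc22a26 in liver, among 11644 genes, they included Cyp2b9 (distance 0.51) and Hao2 (0.72), both of which are also in the female-biased list. For Slc22a27 they were Cyp2c69 (0.63), Cyp2a22 (0.74) and Cyp2b10 (0.81), which encode cytochrome P450 enzymes. The distance between Slc22a26 and Slc22a27 was 1.1, so each had closer genes than the other. For Slc22a6 in kidney, among 12888 genes, they were Cndp2, Nt5dc2 and Agps, each at 0.17.

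The rest of the family and its pathway is read against the 2.26% of genes called in kidney and the 6.02% called in liver. Of the other Slc22 genes 0 of 13 tested were called in kidney (median -0.46), and up to 2 were called in the alternatives. In liver 2 of 9 were called higher, the organic cation and carnitine transporter gene Slc22a4 (log2 fold change 1.06, edgeR adjusted p = 0.0278) and the organic cation transporter gene Slc22a3 (0.70, edgeR adjusted p = 0.0357), and neither call survived every leave-out. Among transporters that work with Slc22 proteins, 1 of 17 was called in kidney, the anion uptake gene Slco1a1, at 407 ± 139 against 85.8 ± 49.3 CPM. In liver 3 of 15 were called, with the efflux pump gene Abcb1b (2.42) and the dicarboxylate carrier gene Slc13a2 (2.04) higher and Abcb1a (-1.42) lower, the last of which was lost without labelled knockout livers 4 and 5. Of the urate genes 0 of 9 were called in kidney. In liver 2 of 8 were lower, the anion transporter gene Slc17a4 (-1.56) and Uox (-0.74), which encodes the urate-degrading enzyme uricase. Of 14 genes known to regulate Slc22 genes, the prolactin receptor gene Prlr was called lower in kidney (-2.82) and in liver (-0.70). The Slco1a1 and Prlr calls in kidney, and the Uox and Prlr calls in liver, were each lost when some single libraries were left out.

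Genes of the sex-biased lists were called in kidney too. Of 8 male-biased genes tested 4 were called higher there, with Cyp4a12a, a fatty acid hydroxylase gene, at 205 ± 79.7 against 13.1 ± 5.63 CPM. These 4 include Slco1a1, the same gene that was counted above among the transporters. The call of Cyp2j13 was lost in 7 of 10 leave-outs and that of Cyp4a12b in 3. The female-biased list was defined by liver, and whether its genes are female-biased in kidney was not examined. Of its 5 genes tested in kidney 1 was called, and it was higher, Cyp2a4 at 517 ± 72.0 against 98.6 ± 45.4 CPM. OAT1 is known in rodents to be higher in male than in female kidney. The part of these genes in the Slc22a6 difference was not tested.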

How the data were processed

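The deposited table holds counts per gene, as whole numbers, for 54532 genes and 20 libraries, per the file headers. The authors also deposited log2 FPKM for part of the genes, used in an alternative only. Build mm10, DESeq2 1.16.1, HISAT2 2.0.5 and StringTie stand in the submitters' processing notes, without role or order. The counting tool, its use of strand and its treatment of reads that match several genes are not given in the sources used here. Gene lengths and positions are those deposited with the counts.

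Each tissue was fitted alone in R 4.3.3 with edgeR 4.0.16 (filterByExpr with a minimum count of 10, TMM scaling, quasi-likelihood F test), with p-values adjusted after Benjamini and Hochberg over all genes tested and called at 0.05. The difference between tissues came from 1 fit of all 20 libraries. That fit and the fit of wild-type kidney against liver held no term for the mouse. With such a term the calls of Slc22a26 and Slc22a27 for the difference were kept. Alternatives used DESeq2 1.42.0, limma 3.58.1, other scaling, no filter, the title number as a replicate block, and fewer libraries. The members and gene lists were chosen with earlier results of these data known. Named genes were the 9 members, up to 4 called genes with the smallest p of a described list, the 3 protein-coding genes at a mean of at least 1 CPM whose profile was most like a called member's, and Nr1h3. Some genes named by this rule are left out of the text. Coding sequences came from GENCODE models on GRCm38, aligned with Biopython 1.88. With 200 genes changed in simulated counts, the kidney fit recovered 32% of those changed by a log2 of 1 and 84% of those changed by 2. The liver fit recovered 66% and 92%. Of 120 calls in the kidney simulation 4 were false, and of 170 calls in the liver simulation 12 were false.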

Additional observations from a re-analysis of the deposited data

Results flagged for a closer look

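Wild-type liver 5 stood apart from the other 4 wild-type livers for Slc22a26, at 68.3 CPM with the next at 16.6 CPM, and for Slc22a27, at 21.3 CPM with the next at 7.09 CPM. Labelled knockout kidney 4 stood apart for Slc22a28, at 261 CPM with the next at 198 CPM. In each case the gap to the nearest library, as a share of the group's range, was above Dixon's critical value for 5 libraries. Of 29 groups examined 3 met that mark, and chance alone gives about 1 in 20. The genotype difference was not the same in kidney and liver for Slc22a26 (kidney minus liver 7.70, edgeR adjusted p = 5.96e-05) and for Slc22a27 (4.66, edgeR adjusted p = 0.0113).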

How the results depend on the processing

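The fall of Slc22a26 and Slc22a27 in liver kept its direction and its call in every alternative that held the gene. Slc22a26 was not in the log2 FPKM table, so that alternative called 1 member lower in liver and 1 member for the difference between tissues. Slc22a2, Slc22a6, Slc22a8 and Slc22a12 were not in it either. The number of members called higher in kidney was 0 without TMM scaling and with no filter beyond 1 count, 0 with log2 FPKM values, where Slc22a6 could not be tested, 2 with DESeq2 and without wild-type kidneys 1 and 3, and 0 to 2 when each library was left out. Genes called in kidney were 1151 with DESeq2, 237 with log2 FPKM values, 590 without wild-type kidneys 1 and 3, and 99 to 921 over the leave-outs. Genes called in liver were 1408 with DESeq2 and 575 to 913 over the leave-outs. For the difference between tissues, genes called were 176 without TMM scaling, 611 with DESeq2 and 165 to 487 over the leave-outs. Without labelled knockout livers 4 and 5 they were 176, with 1 member. With a replicate block by title number, 902 genes were called in kidney and 307 in liver. The block moved no member across the threshold within a tissue. It ended the liver calls of Slc22a4 (adjusted p = 0.0542 by edgeR), Slc22a3 (0.0976), Abcb1a (0.0684), Uox (0.232) and Prlr (0.0733). The labels do not pair the numbers, and same-numbered kidneys of both genotypes correlated at 0.03 to 0.22, so the numbers were not taken as pairs across genotypes. A kidney and a liver of equal genotype and number correlated at -0.15 to 0.35 in wild type and -0.11 to 0.27 in labelled knockout. In wild-type kidney against liver, 1 member was called lower without TMM scaling, and 2 were called higher with log2 FPKM values, where 5 members have no value. Small differences changed sign. In kidney these were Slc22a28 without wild-type kidneys 1 and 3 (-0.01), and, relative to proximal tubule markers, Slc22a2 (-0.03), Slc22a8 (-0.14), Slc22a28 (-0.31) and Slc22a30 (-0.28). In liver Slc22a30 was -0.04 without TMM scaling, -0.12 with the block and -0.10 to 0.15 over the leave-outs, and Slc22a28 was -0.02 to 0.40 over the leave-outs. For the difference between tissues, Slc22a28 was 0.05 with no filter and -0.25 to 0.16 over the leave-outs, and Slc22a30 was -0.10 without labelled knockout livers 4 and 5. In wild-type kidney against liver, Slc22a26 was 0.32 without TMM scaling, 0.23 with the block and -0.55 to 0.64 over the leave-outs. The causes were not tested. Depth limits Slc22a27 in kidney and both lost genes in labelled knockout liver, where libraries held 0 to 9 counts.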
